A study of Mus musculus with 203 samples.

Results

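The 10 genes described here encode the 4 teneurins (Tenm1, Tenm2, Tenm3 and Tenm4), the 3 latrophilins (Adgrl1, Adgrl2 and Adgrl3) and the 3 FLRT proteins (Flrt1, Flrt2 and Flrt3). They are listed by family, but this list and that of the partner genes below were drawn up with earlier results of these data known. The shares over all genes set beside them are therefore a description only. All 10 were found by symbol among the 24029 genes of the count table. Their levels were read in single neurons of the nucleus ambiguus (Amb), a column of brainstem motor neurons whose axons run in the vagus nerve. All neurons came from wild-type C57BL/6 mice (C57BL/6NCrl in the study's methods), were filled by fluorescent cholera toxin B given at postnatal day 1, and were aspirated at postnatal days 2 to 4. The tracer went into the pericardial space of 28 mice or into the cricothyroid muscle of the larynx in 16 other mice, and no group was left without tracer. By the deposited annotation 53 neurons were ACP (ambiguus cardiopulmonary), 98 were ACV (ambiguus cardiovascular) and 52 were laryngeal.

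There were more neurons than mice, and the mouse and library plate of a neuron are not in the labels. Each type therefore counts as 1 sample, no test between types was made, and the spread given is that between neurons. ACP and ACV were separated by clustering these same counts, so their differences are a description. Cardiac and laryngeal neurons came from different mice, so tracer site and mouse cannot be told apart.

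Teneurins are large single-pass proteins of the neuronal surface. They bind their own kind and bind latrophilins on the facing cell, and they are known for matching axons with their target neurons. Latrophilins are adhesion G protein-coupled receptors found at synapses. FLRT proteins are leucine-rich repeat proteins that bind latrophilins, and also bind the Unc5 receptors, through which they can repel axons and migrating cells. A teneurin, a latrophilin and a FLRT protein can meet at the same contact, which makes the set of genes that a motor neuron uses part of its surface identity.

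Levels are given as CPM, the reads of a gene per 1000000 reads of the neuron that lay outside Rn45s. Rn45s, the ribosomal RNA precursor, took 37% of reads in ACP, 38.5% in ACV and 58.2% in laryngeal neurons on average, and the median depth outside it was 1115375, 1120512 and 560892 reads. Pappa2, an ACP marker, had a mean of 254.8 CPM in ACP neurons, the ACV marker Hoxa5 442.6 CPM in ACV and the laryngeal peptide gene Calca 2095.3 CPM in laryngeal neurons, against at most 15.7, 12.6 and 52.8 CPM in the other types. Not all markers were as private. Tacr3, also an ACP marker, had 83.8 CPM in ACP and 60.9 CPM in laryngeal neurons. The ACP marker Calb1 was read in 77.4% of ACP, 44.9% of ACV and 44.2% of laryngeal neurons. Markers of cholinergic motor neurons were read in most neurons, with Slc18a3, the vesicular acetylcholine transporter, in all of them. Of the genes that mark ACV neurons, Ghsr and Htr3b were read in 0 of 53 ACP neurons, which allows a share of up to 5.66% for each. In 9 of 98 ACV neurons and in 1 laryngeal neuron the summed markers went against the label, and this was so in 0 of 53 ACP neurons. ACP and ACV neurons were checked only against each other's markers, and laryngeal neurons only against the cardiac markers Tbx3, Npy2r and Cnr1. Laryngeal markers were not part of this check in cardiac neurons. They summed to at most 1556.7 CPM in ACP and 1275 CPM in ACV, with medians of 37.6 and 46.5 CPM. Glial RNA was present throughout. Aqp4, an astrocyte water channel, was read in 58.5% of ACP, 50% of ACV and 44.2% of laryngeal neurons, and C1qb, a microglial complement gene, in 39.6%, 42.9% and 44.2%. Apoe, a gene of astrocytes and microglia that the study limited to 1800 reads, was above that limit in 11 ACP, 28 ACV and 0 laryngeal neurons of the deposited table. A share of neurons with a read near those of Aqp4 and C1qb is no evidence that the neuron itself used the gene. Opalin, a marker of mature oligodendrocytes, was read in 0 of 53 ACP neurons, which allows a share of up to 5.66%.

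In ACP neurons 4 of the 10 genes had mean levels at least 2-fold above those in ACV neurons, and none was as far below. These were Tenm1, Tenm4, Adgrl2 and Adgrl3. The 13356 genes compared were those read in 10% or more of the neurons of at least 1 type, and of these 9.87% were at least 2-fold higher in ACP and 8.63% at least 2-fold lower. With each neuron left out in turn, Tenm1, Adgrl2 and Adgrl3 stayed past 2-fold, while Tenm4 fell just short without the ACP neuron at 334.7 CPM (log2 ratio 0.99) and Flrt1 was past 2-fold lower without the ACP neuron at 445.7 CPM (-1.08). The median log2 ratio was 0.71 for the 10 genes and 0.00 for all genes. All 10 genes passed the filter in every comparison.

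Tenm1 was the member that differed most between ACP neurons and the others. It lies on chromosome X (mm10, 42527866 to 43429126, minus strand) and encodes teneurin-1, which signals with a cleaved intracellular part as well as by adhesion. In ACP neurons its level ran from 0 to 655.6 CPM with a median of 64.1, and the mean was 119.9 ± 140.98 CPM (SD, n = 53 neurons). In ACV neurons it ran from 0 to 472.9 CPM with a median of 0, and the mean was 18 ± 55.7 CPM (SD, n = 98). In laryngeal neurons it ran from 0 to 180.5 CPM with a median of 5.01, and the mean was 26.7 ± 43.7 CPM (SD, n = 52). The ranges overlapped, more so for laryngeal than for ACV neurons. The lower quartile was 18.5 CPM in ACP, against upper quartiles of 37.4 CPM in laryngeal and 7.11 CPM in ACV neurons. In 85.9% of all pairs of an ACP and an ACV neuron the ACP neuron had the higher Tenm1 level, with ties counted equally to both sides.

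A Tenm1 read was found in 50 of 53 ACP neurons (94.3%, exact Clopper-Pearson 95% interval 84.3 to 98.8%), in 48 of 98 ACV neurons (49%, 38.7 to 59.3%) and in 28 of 52 laryngeal neurons (53.8%, 39.5 to 67.8%). The ACV and laryngeal shares were close to those of Aqp4. Thinned to 200000 reads per neuron, the shares were 84.9%, 33.7% and 49%. Summed over neurons, ACP had 7106 Tenm1 reads, or 110.01 CPM (exact Poisson 95% interval 107.5 to 112.6), and ACV had 1806, or 15.6 CPM (14.9 to 16.3). Laryngeal neurons had 866 reads, or 27.4 CPM (25.6 to 29.3). These intervals cover counting error only, because PCR copies of a molecule cannot be told from separate molecules here.

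The mean Tenm1 level in ACP was 6.68-fold that in ACV (log2 ratio 2.74) and 4.49-fold that in laryngeal neurons (log2 ratio 2.17). Within ACV, the 10 neurons with the most Tenm1 held 76.1% of its summed CPM. The 9 ACV neurons whose markers went against the label had a mean of 85.4 CPM and a median of 17.5, and 1 of them was the ACV neuron with the most Tenm1, at 472.9 CPM. The other 8 had a mean of 37 CPM. Without that neuron alone the ACV mean was 13.3 CPM and the log2 ratio for ACP over ACV 3.18. Without all 9 the ACV mean was 11.1 CPM and the log2 ratio 3.43. Tenm1 in ACV was also higher above 900 reads of Apoe, a limit on reads not scaled for depth. The 54 ACV neurons above it had a mean of 25.6 CPM, with the one at 472.9 CPM among them. The 44 at or below it had a mean of 8.58 CPM. ACP went the other way, with means of 96.3 CPM in the 27 neurons above that limit and 144.5 CPM in the 26 at or below. With that limit on both types the log2 ratio was 4.07, so the ratio was larger in the neurons with less Apoe. Of the 44 ACV neurons with a read of Calb1, a calcium-binding protein that marks ACP, 29 also had a read of Tenm1, against 19 of the 54 without Calb1 (Spearman's rho of the levels 0.42 over 98 neurons, which share libraries of unequal depth). Calb1 was the highest of the ACP markers examined. For the others rho in ACV was 0.14 (Trhr), 0.02 (Tacr3), 0.20 (Mc4r) and 0.05 (Pappa2).

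Tenm2 had the highest mean per kb of exon of any teneurin in each type, and its level was alike in all 3. It lies on chromosome 11 (36006656 to 37235964, minus strand). ACP neurons ran from 0 to 1259.1 CPM with a median of 180.2, ACV neurons from 0.879 to 1719.7 with a median of 199.6, and laryngeal neurons from 0 to 824.8 with a median of 172.5. Mean levels came to 286.3 ± 299.9, 261.7 ± 270.7 and 243.1 ± 194.6 CPM (SD), and the log2 ratio was 0.13 for ACP over ACV and 0.24 for ACP over laryngeal. The quartiles lay close together, at 102.4 and 316.1 CPM in ACP, 117.6 and 317.3 in ACV, and 99.3 and 353.04 in laryngeal neurons. The highest values differed more. A Tenm2 read was present in all 98 ACV neurons, in 51 of 53 ACP neurons and in 49 of 52 laryngeal neurons.

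Tenm3 and Tenm4 were lowest in ACV. Tenm3, known for guiding connections in the visual and hippocampal circuits, lies on chromosome 8 (48227682 to 48843951, minus strand). Its mean was 133.1 ± 177.8 CPM in ACP, 74.9 ± 107.9 in ACV and 152.6 ± 139.8 in laryngeal neurons (SD), with medians of 51, 41.9 and 102.1 and highest values of 695.4, 698.1 and 459.5. ACP and ACV neurons overlapped over the whole range, with a log2 ratio of 0.83.

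Tenm4, which also acts in myelination, lies on chromosome 7 (96171246 to 96911093, plus strand) and was the member that set laryngeal neurons furthest from ACV. It ran from 0 to 616.2 CPM in laryngeal neurons with a median of 99.2 and a mean of 131.9 ± 146.97 (SD, n = 52). In ACP it ran from 0 to 334.7 with a median of 41.9 and a mean of 66.7 ± 81.8 (n = 53), and in ACV from 0 to 280.6 with a median of 9.74 and a mean of 31 ± 49.2 (n = 98). The ranges overlapped at the low end in all types. The log2 ratio was 1.11 for ACP over ACV, -2.09 for ACV over laryngeal and -0.98 for ACP over laryngeal, just inside the 2-fold limit. With a deposited table of scaled values, whose columns lack a common total, the last was 0.16. Order by mean was otherwise laryngeal, ACP and ACV, and each step was smaller than the SD between neurons of the higher type.

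**Figure D1:**
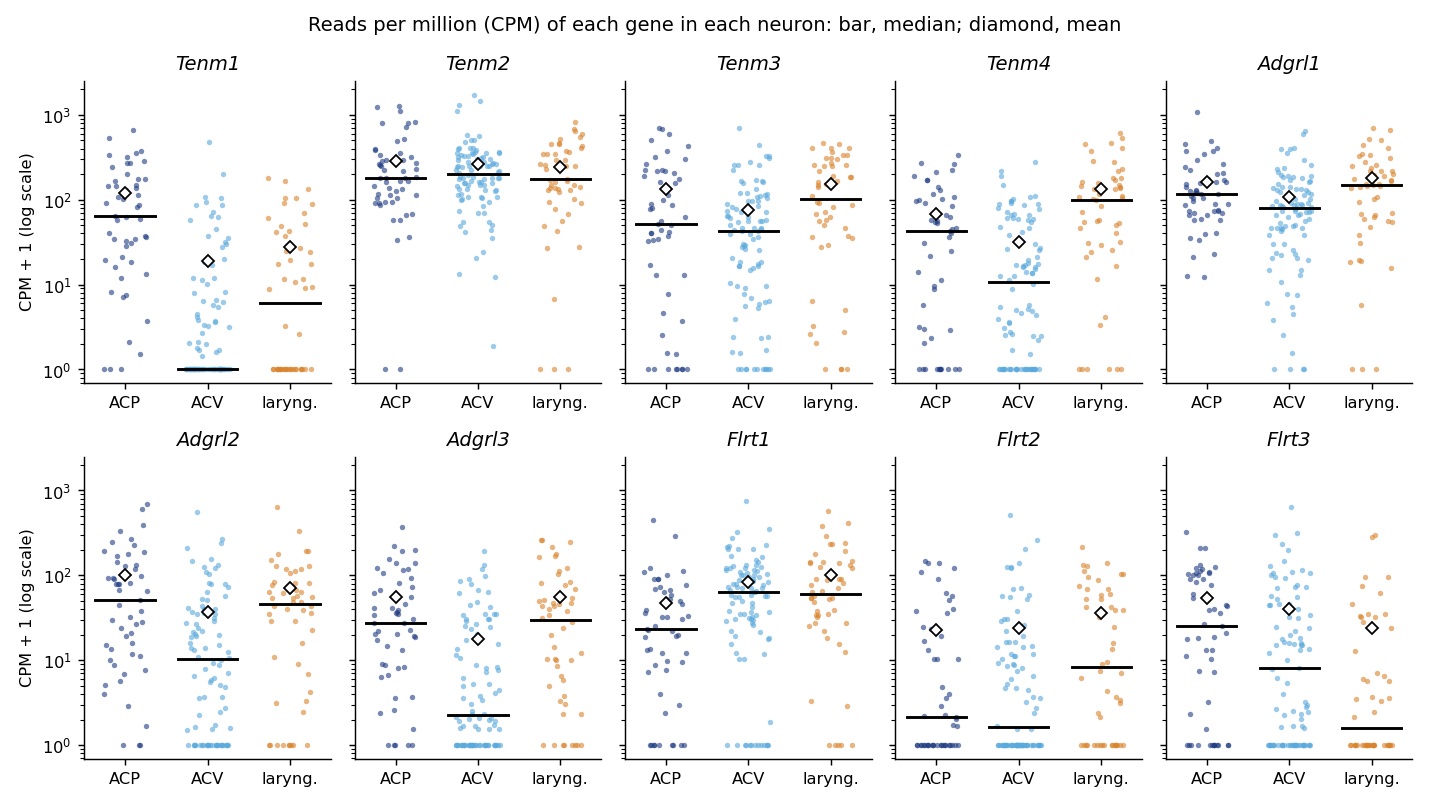
Level of each of the 10 genes in each neuron (1 point) by type, as CPM + 1 on a log axis; bars are medians, open diamonds means, and points at 1 are neurons without a read. Tenm1 has a median of 64.1 CPM in ACP and 0 in ACV, while Tenm2 has medians of 172.5 to 199.6 CPM in all types.

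All 3 latrophilins had a lower mean in ACV than in ACP or laryngeal neurons, except that in a deposited table of scaled values, whose columns lack a common total, Adgrl1 had a log2 ratio of 0.13 for ACV over laryngeal. Adgrl1, a receptor for the spider toxin latrotoxin, lies on chromosome 8 (83900105 to 83941954, plus strand). It was read in all 53 ACP neurons, in 94 of 98 ACV and in 49 of 52 laryngeal neurons. Its mean was 160.4 ± 171.05 CPM in ACP, 105.8 ± 115.4 in ACV and 180.96 ± 164.4 in laryngeal neurons (SD), with medians of 115.8, 77.8 and 149.7. The groups overlapped over most of their range, and the log2 ratio of 0.60 for ACP over ACV did not reach the 2-fold limit.

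Adgrl2, a latrophilin that takes part in forming specific synapses in the hippocampus, lies on chromosome 3 (148815583 to 148990555, minus strand). It ran from 0 to 695.4 CPM in ACP with a median of 50.1, from 0 to 554.7 in ACV with a median of 9.38, and from 0 to 631.0 in laryngeal neurons with a median of 44.9. Mean levels came to 100.7 ± 141.4, 36.1 ± 73.7 and 69.7 ± 102.8 CPM (SD). ACP exceeded ACV 2.79-fold (log2 ratio 1.48), and 71.6% of ACP and ACV pairs had the higher level in the ACP neuron. ACV stood just inside the limit against laryngeal neurons, with a log2 ratio of -0.95.

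Adgrl3, the latrophilin whose gene has been linked to attention deficit hyperactivity disorder, lies on chromosome 5 (81020138 to 81825133, plus strand). ACP and laryngeal neurons had nearly the same level, with means of 54.6 ± 71.8 and 54 ± 71.8 CPM (SD) and medians of 26.6 and 28.8. ACV neurons ran from 0 to 190.3 CPM with a median of 1.25 and a mean of 16.6 ± 32.2. The log2 ratio was 1.72 for ACP over ACV, -1.70 for ACV over laryngeal and 0.02 for ACP over laryngeal. A read was found in 90.6% of ACP, 64.3% of ACV and 84.6% of laryngeal neurons, and in 79.2%, 40.8% and 85.7% after thinning to 200000 reads.

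The FLRT genes did not share this order. Flrt1, on chromosome 19 (7092001 to 7105729, minus strand), was lowest in ACP, with a mean of 46.8 ± 74.5 CPM and a median of 22.5. In ACV it had a mean of 82.7 ± 98.8 and a median of 62.6, and in laryngeal neurons a mean of 99.9 ± 115.4 and a median of 59.2 (SD). The log2 ratio was -0.82 for ACP over ACV and -1.09 for ACP over laryngeal.

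Flrt3, on chromosome 2 (140650914 to 140671469, minus strand), ran in the opposite order, except that among neurons with at most 900 reads of Apoe its log2 ratio for ACP over ACV was -0.27. Its mean was 52.9 ± 66.5 CPM in ACP, 39.2 ± 85.7 in ACV and 23.3 ± 58.8 in laryngeal neurons (SD), with medians of 24.6, 7.03 and 0.584. The ranges overlapped, with highest values of 326.3, 645.1 and 297.1 CPM. A read was found in 75.5% of ACP, 67.3% of ACV and 50% of laryngeal neurons, the last close to the share for Aqp4. The log2 ratio for ACP over laryngeal was 1.18, and 69.5% of such pairs had the higher level in the ACP neuron. It was 0.76 among neurons with at most 1800 reads of Apoe and 0.82 from summed reads, both short of 2-fold. Flrt1 was past 2-fold in ACP over laryngeal under 7 of 12 other settings, with a log2 ratio of -0.62 among neurons with at most 900 reads of Apoe.

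Flrt2, on chromosome 12 (95692226 to 95785215, plus strand), was sparse in every type. A read was found in 56.6% of ACP, 52% of ACV and 67.3% of laryngeal neurons, and the ACP and ACV shares were close to those of Aqp4. Flrt2 medians were 1.13 CPM in ACP, 0.622 in ACV and 7.26 in laryngeal neurons, and its means 21.8 ± 40.2, 23 ± 65.1 and 35.2 ± 48.4 CPM (SD). The 10 highest of 98 ACV neurons held 74.5% of its summed CPM in that type. No pair of types reached 2-fold, with log2 ratios of -0.07 for ACP over ACV, -0.69 for ACP over laryngeal and -0.61 for ACV over laryngeal. The last was past 2-fold under 5 of 12 other settings, at -1.74 with a mean that left out the highest and lowest 10% of neurons, -1.25 and -1.24 with at most 1800 and 900 reads of Apoe, -1.10 from summed reads and -1.05 without neurons against their label. With that trimmed mean ACP over laryngeal was at -1.16. In the deposited table of scaled values both laryngeal ratios were above 0, at 0.22 for ACP and 0.07 for ACV. The ACP over ACV ratio was above 0 under 8 of the 12.

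Several of these genes share exon bases with a gene on the opposite strand in GENCODE vM21, and whether reads were counted by strand is not given in the sources used here. Tenm1 shares 1465 exon bases with Sh2d1a, which was read in at most 1 neuron of each type. Adgrl3 shares 1582 exon bases with Gm16054, Adgrl1 1107 with Gm10644 and Tenm4 988 with C230038L03Rik, and none of these 3 is listed in the count table, so their reads cannot be told apart from those of the members. Adgrl2 and Tenm3 share shorter stretches with Gm43573 and Gm19744. Flrt1 lies within Macrod1 and Flrt3 within Macrod2, on the opposite strand to each, with 0 shared exon bases. Macrod1 had means of 1.9, 2.96 and 1.18 CPM in ACP, ACV and laryngeal neurons. Macrod2 had means of 56.1, 50 and 39.6 CPM, in the same order as Flrt3, with a log2 ratio of 0.51 for ACP over laryngeal against 1.18 for Flrt3.

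Tenm1, Tenm4, Adgrl2 and Adgrl3 differed between ACP and ACV in the same direction, and the windows at their RefSeq start sites (250 bases before to 50 after, build GRCm38.p6) are shown so that their sequences can be compared. Entries were found for 9 of the 10 members, with none for Flrt1. The first entry was taken for Tenm4 and Adgrl3, which have several. Capitals mark TAAT or its complement ATTA, the core that homeodomain factors such as Isl1 and the Hox proteins can bind. Matches were counted on both strands, including those that overlap each other. Each window is written 5′ to 3′ on the strand of its gene.
Tenm1: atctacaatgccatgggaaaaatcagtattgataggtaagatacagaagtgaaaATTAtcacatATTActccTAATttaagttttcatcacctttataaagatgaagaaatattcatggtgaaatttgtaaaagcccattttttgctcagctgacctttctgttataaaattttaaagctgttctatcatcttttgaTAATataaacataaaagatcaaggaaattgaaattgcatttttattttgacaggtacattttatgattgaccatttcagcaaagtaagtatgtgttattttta
Tenm4: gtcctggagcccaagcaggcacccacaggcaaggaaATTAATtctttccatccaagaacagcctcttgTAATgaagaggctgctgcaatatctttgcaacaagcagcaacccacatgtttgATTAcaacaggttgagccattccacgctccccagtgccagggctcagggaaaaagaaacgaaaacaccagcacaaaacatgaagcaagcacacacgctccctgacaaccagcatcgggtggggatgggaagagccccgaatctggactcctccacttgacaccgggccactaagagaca
Adgrl2: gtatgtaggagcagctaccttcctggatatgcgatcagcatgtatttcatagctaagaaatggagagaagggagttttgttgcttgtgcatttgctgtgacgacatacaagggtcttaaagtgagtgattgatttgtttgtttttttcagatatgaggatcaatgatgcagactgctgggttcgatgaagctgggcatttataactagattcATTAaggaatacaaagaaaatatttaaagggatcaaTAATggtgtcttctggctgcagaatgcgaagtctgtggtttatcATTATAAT
Adgrl3: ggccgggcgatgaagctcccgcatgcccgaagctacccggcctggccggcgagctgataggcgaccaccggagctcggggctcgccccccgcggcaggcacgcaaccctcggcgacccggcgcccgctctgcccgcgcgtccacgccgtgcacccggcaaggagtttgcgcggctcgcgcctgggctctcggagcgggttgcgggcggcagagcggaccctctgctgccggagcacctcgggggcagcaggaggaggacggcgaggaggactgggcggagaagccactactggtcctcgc

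The windows were at chrX:43274735-43275034 (minus) for Tenm1, chr7:96170994-96171293 (plus) for Tenm4, chr3:148954586-148954885 (minus) for Adgrl2 and chr5:81020321-81020620 (plus) for Adgrl3. The first 3 held 4 matches each and the Adgrl3 window held 0. Of the other entries of these genes, that of Tenm4 held 0 and those of Adgrl3 held 0 and 3. Windows of members not past 2-fold in ACP over ACV held 3 for Tenm3, 2 for Tenm2, 1 for Flrt3, and 0 for Adgrl1 and Flrt2. Over all 32851 windows in the RefSeq table the median was 1 match and the mean 1.41, and 58% held at least 1. Base composition differed widely. Tenm1 had 27% G or C and 0 CG pairs, Adgrl2 38% and 4, Tenm4 52% and 6, and Adgrl3 75.3% and 40. The median over all windows was 52.7%. The windows for Tenm1, Adgrl2 and Adgrl3 lie inside the GENCODE span of each gene, and which start sites these neurons used was not measured.

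Against laryngeal neurons, ACP neurons had 2 of the 10 genes at least 2-fold higher, Tenm1 and Flrt3, and 1 at least 2-fold lower, Flrt1. Among all 13256 genes compared, 10.3% were at least 2-fold higher in ACP and 12.5% at least 2-fold lower. The median log2 ratio of the 10 genes was -0.08, with 5 above 0, near the median of -0.03 over all genes. No latrophilin reached 2-fold between these types, with log2 ratios of -0.17 for Adgrl1, 0.53 for Adgrl2 and 0.02 for Adgrl3. The Adgrl2 ratio was past 2-fold with totals that keep Rn45s (1.17) and in the deposited table of scaled values (1.51), where the median of all genes also moved, to 0.58 and 0.99. Flrt1, without the laryngeal neuron that had 577.8 CPM of it, fell short of 2-fold (-0.95), and leaving out any 1 of 34 neurons brought Tenm4 past 2-fold lower (to -1.10 at most).

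ACV neurons had 3 of the 10 genes at least 2-fold lower than laryngeal neurons and 0 at least 2-fold higher. The 3 were Tenm3 (log2 ratio -1.03), Tenm4 and Adgrl3. The Tenm3 ratio was past 2-fold under 7 of 12 other settings, and the other 2 under all 12. It also fell short, to -0.97 at the most, when any 1 of 11 neurons was left out. Without the ACV neuron at 472.9 CPM Tenm1 was past 2-fold lower (-1.01), Adgrl2 was so without any 1 of 5 neurons (to -1.18), and Flrt3 was past 2-fold higher without either of 2 laryngeal neurons (to 1.12). Among all 13297 genes compared, 14% were at least 2-fold lower in ACV and 10.4% at least 2-fold higher. Only Tenm2 (0.11) and Flrt3 (0.75) had a log2 ratio above 0, and the median of the 10 genes was -0.69 against -0.02 over all genes. These comparisons share their neurons with those above, so the low ACV levels enter both.

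**Figure D2:**
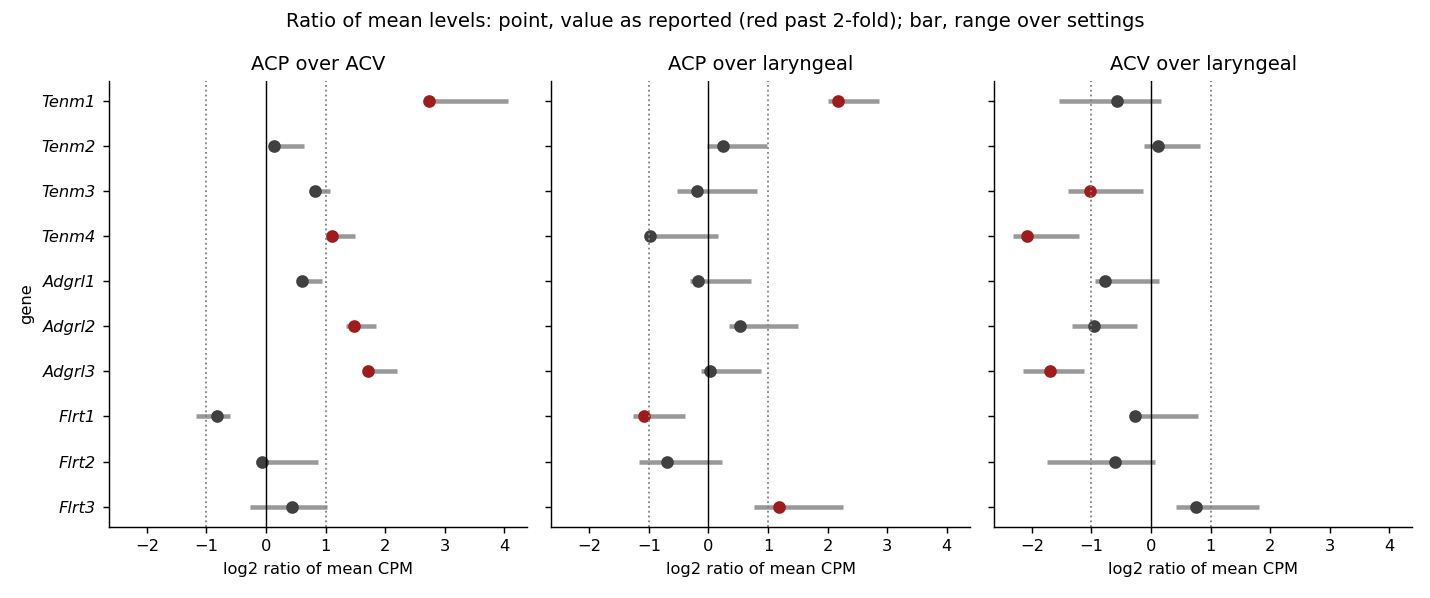
Log2 ratio of mean CPM of each gene (rows) in the 3 comparisons; points are the values in the text, red where past 2-fold (dotted lines), and gray bars span the values under 12 other scalings, averages and choices of neurons. Tenm1 stays above 2 on the log2 scale in ACP over ACV and ACP over laryngeal, while the bars of Tenm2 stay within 2-fold.

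With 9 ACV and 1 laryngeal neuron left out because their markers went against their label, the 4 genes higher in ACP than ACV were the same, joined by Tenm3 (log2 ratio 1.06). Against laryngeal neurons ACV then had 6 genes at least 2-fold lower, namely Tenm1, Tenm3, Tenm4, Adgrl2, Adgrl3 and Flrt2.

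Set on a scale of CPM per kb of exon, which allows levels of different genes to be compared, the teneurins summed to 56 in ACP, 37.4 in ACV and 50.8 in laryngeal neurons. Tenm2 made up 51.6%, 70.6% and 48.2% of that sum. Tenm1 made up 16.6% in ACP, 3.72% in ACV and 4.07% in laryngeal neurons, and Tenm4 made up 8.14%, 5.66% and 17.7%. The second teneurin by level was Tenm3 in each type, with 23.7%, 20% and 30%.

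The latrophilins summed to 41.4 CPM per kb in ACP, 20.1 in ACV and 39 in laryngeal neurons, with SDs between neurons of 38.9, 21.5 and 29.7. Adgrl1 led in each type, with 45.4%, 61.7% and 54.4% of the sum. Adgrl2 made up 37.3% in ACP and 27.5% in both other types. The FLRT genes summed to 22.5, 25.7 and 26.7 CPM per kb, and their order changed: Flrt3 led in ACP with 52%, whereas Flrt1 led in ACV with 54.8% and in laryngeal neurons with 63.7%.

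**Figure D3:**
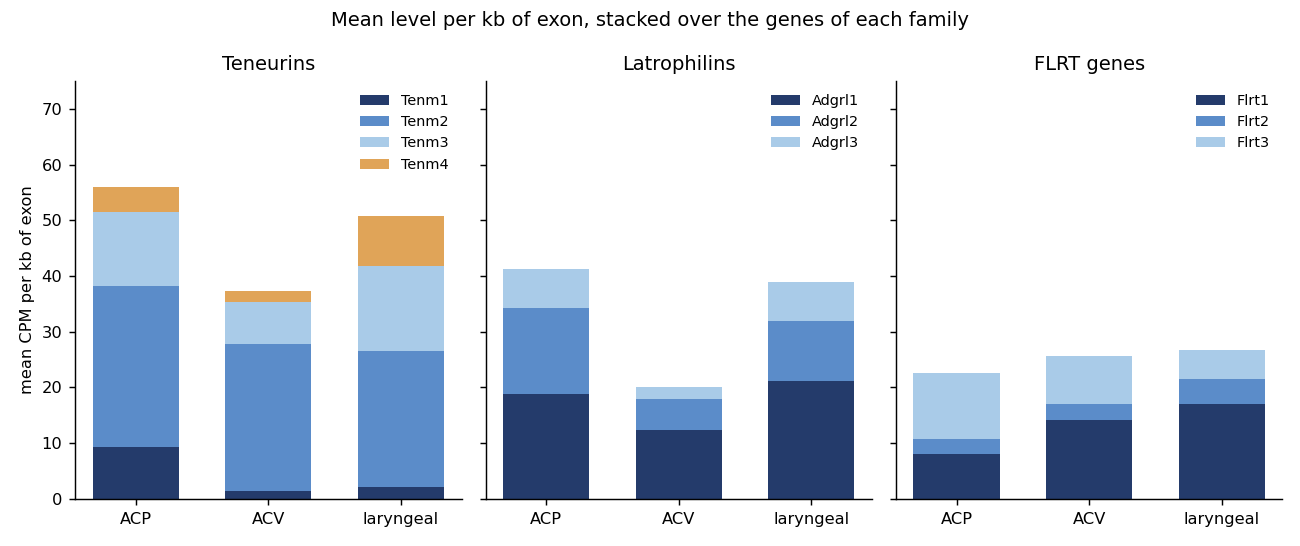
Mean CPM per kb of exon in each type, stacked over the genes of each family, with bars starting at 0. The latrophilin bar is 20.1 in ACV against 41.4 in ACP and 39 in laryngeal neurons, and the FLRT bars are of similar height (22.5 to 26.7) but differ in their leading gene.

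The gene that led its family by mean was the highest in many but not all neurons. Tenm2 was the highest teneurin per kb in 41 of 53 ACP, 84 of 98 ACV and 34 of 52 laryngeal neurons. Tenm4 was highest in 7 laryngeal neurons and in 1 cardiac neuron, an ACV neuron. Adgrl1 was the highest latrophilin in 30 ACP, 75 ACV and 33 laryngeal neurons, and Adgrl2 in 18, 18 and 11. Flrt3 was the highest FLRT gene in 26 of 53 ACP neurons (49.1%) but in 22 of 98 ACV (22.4%) and 6 of 52 laryngeal neurons (11.5%). Flrt1 was highest in 17, 60 and 36.

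Most neurons held reads of several members of each family. The median neuron had reads of 9 of the 10 genes in ACP, 8 in ACV and 9 in the larynx group, and all 10 were read in 19 ACP, 19 ACV and 11 laryngeal neurons. A read of Tenm1, Adgrl2 and Adgrl3 together was found in 43 of 53 ACP neurons (81.1%), in 32 of 98 ACV neurons (32.7%) and in 24 of 52 laryngeal neurons (46.2%). These 3 genes are among those already found higher in ACP than in ACV, so a larger joint share in ACP was built in. The joint shares rest on single reads and were not thinned. Each neuron held at least 1 teneurin read, while 2 ACV and 3 laryngeal neurons had no latrophilin read. Within a type the members' levels went together only loosely. Over the 45 pairs of members the median Spearman's rho was 0.20 in ACP, 0.16 in ACV and 0.23 in laryngeal neurons, and the highest was 0.60, between Tenm2 and Adgrl1 in laryngeal neurons. The neurons share libraries of unequal depth, and values this low in sparse counts are given as a description.

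Of 19 further genes whose proteins bind these families or act with them, 18 passed the filter and Adgrl4, a latrophilin relative of blood vessels, did not. In ACP over ACV 7 of the 18 were at least 2-fold higher and 1 at least 2-fold lower, with a median log2 ratio of 0.72, where over all genes 9.87% were higher, 8.63% lower and the median was 0.00. Netrin receptors that bind FLRT proteins were among them, with log2 ratios of 1.40 for Unc5c and 1.25 for Unc5d. So were the Slit receptor Robo1 (1.94), which is known to associate with FLRT3, the growth factor receptor Fgfr1 (1.73), the latrophilin-binding adhesion protein Cntn6 (1.87), and the neurexins Nrxn2 (1.01) and Nrxn3 (1.02), presynaptic organizers. The gene that was lower, Unc5b (-2.12), was read in 3 of 53 ACP and 14 of 98 ACV neurons, so its ratio rests on few reads and was -1.45 without the ACV neuron at 39.8 CPM. Unc5c fell short of 2-fold without 1 ACP neuron (0.96), Nrxn2 without any 1 of 37 neurons (to 0.79) and Nrxn3 without any 1 of 8 (to 0.96), while Shank3 (0.90) was past it without either of 2 ACV neurons (to 1.33). Fgfr1 had a median of 91.2 CPM in ACP, 14.7 in ACV and 33.1 in laryngeal neurons, and Cntn6 39.7, 1.85 and 0.

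Against laryngeal neurons, ACP had 3 of the 18 at least 2-fold higher, namely Fgfr1 (log2 ratio 1.29), Nrxn3 (1.26) and Cntn6 (1.91). It had 6 at least 2-fold lower, namely Unc5a (-1.12), Unc5b (-4.95, read in 9 of 52 laryngeal neurons), Robo1 (-1.06), Fgfr2 (-2.69) and the postsynaptic scaffolds Shank1 (-1.07) and Shank2 (-1.19). Over all genes 10.3% were higher and 12.5% lower in ACP. Single neurons weighed on several of these ratios. Without the laryngeal neuron at 692.03 CPM Fgfr2 was at -1.97, and without the one at 960.7 CPM Shank2 was at -0.79, short of 2-fold. Unc5a, Robo1 and Shank1 also fell short without any 1 of 3, 5 and 3 neurons (to -0.92, -0.93 and -0.97), and Unc5b was at -4.23 without the laryngeal neuron at 162.6 CPM. Robo2, not past 2-fold (-0.75), was at -1.07 without 1 ACP neuron. ACV had 0 of the 18 higher and 9 lower than laryngeal neurons: Unc5a (-1.19), Unc5b (-2.84), Unc5c (-1.37), Unc5d (-2.00), Robo1 (-3.0), Fgfr2 (-3.12), Nrxn2 (-1.06), Shank2 (-1.89) and Shank3 (-1.34). Over all genes 10.4% were higher and 14% lower in ACV. Without the same laryngeal neurons Fgfr2 was at -2.39 and Unc5b at -2.11, Unc5a fell just short (-0.99), and Nrxn2 fell to the edge of the limit without either of 2 others. The median log2 ratio of the 18 was -0.36 for ACP and -0.91 for ACV over laryngeal neurons, against -0.03 and -0.02 over all genes.

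**Figure D4:**
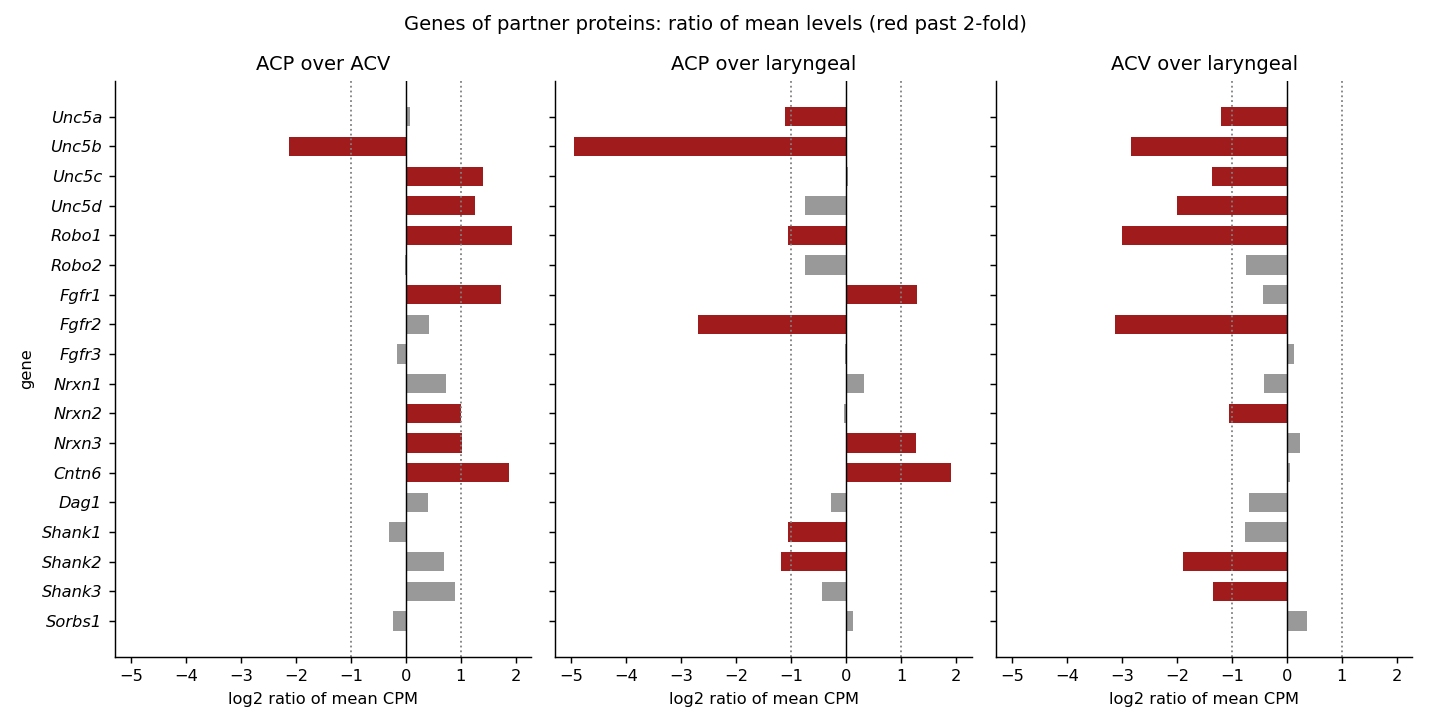
Log2 ratio of mean CPM of the 18 partner genes that passed the filter (rows) in the 3 comparisons, red where past 2-fold (dotted lines). In ACV over laryngeal 9 genes are at least 2-fold lower and 0 higher, where 14% and 10.4% of all genes are. In ACP over ACV 7 are higher and 1 lower, where 9.87% and 8.63% of all genes are.

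For each member past 2-fold in any comparison, the genes with the most similar pattern over all neurons were sought. Likeness was the Pearson correlation of log2(CPM + 1) over the neurons of all types, among 10591 genes read in at least 25% of them, so it includes the differences between types, and the neurons share plates, mice and unequal depth. For Tenm1 the 3 most alike were Cntn4 (0.53), an axonal adhesion protein, Pcdh10 (0.49), a protocadherin, and Sema3d (0.48), a secreted guidance cue. Sema3d had means of 102.7 CPM in ACP, 3.35 in ACV and 8.62 in laryngeal neurons. For Adgrl3 they were Ptprd (0.52), a synaptic receptor phosphatase, Kcnd2 (0.47), a potassium channel, and Thsd7a (0.44). Ptprd had means of 476.8, 49.8 and 331.2 CPM. For Adgrl2 they were Kcnma1 (0.49), Sema6d (0.49) and Gpc1 (0.47), the last a heparan sulfate proteoglycan.

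Tenm4 was most like Sv2b (0.48), a synaptic vesicle protein with means of 84.3, 12 and 193.01 CPM in ACP, ACV and laryngeal neurons, and then Atp8a2 (0.44) and Kndc1 (0.42). For Tenm3 the 3 were Camsap2 (0.43), Robo1 (0.41) and Pclo (0.40). For Flrt1 they were B3galt1 (0.45), Cadm1 (0.45) and Scamp1 (0.43). Flrt3 had the weakest likeness, with 0.36 for Lmbrd1, 0.33 for Bace1 and 0.33 for Kcnk1.

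Signs of other cells were measured beside these differences. All 5 microglial markers were at least 2-fold lower in ACP than in ACV and in laryngeal neurons, and their summed CPM ran from 0 to 647.7 in ACP, 0 to 5093.4 in ACV and 0 to 1752.4 in laryngeal neurons. The 7 astrocyte markers summed to medians of 1920.9, 2253.0 and 2775.6 CPM, with 0 higher and 1 at least 2-fold lower in ACP than in ACV, and 1 higher in ACP and 2 in ACV than in laryngeal neurons. The 5 oligodendrocyte markers had summed medians of 126.8, 86.4 and 104.3 CPM, with 1 lower in each cardiac type than in laryngeal neurons. Of 5 markers of oligodendrocyte precursors, 2 were at least 2-fold higher and 1 lower in each cardiac type than in laryngeal neurons, with summed medians of 39.8, 30.1 and 59.1 CPM. Of the 4 markers of inhibitory neurons, 3 were at least 2-fold lower in ACP and 2 in ACV than in laryngeal neurons, and in ACP over ACV 1 was higher and 1 lower. Their summed CPM ran from 0 to 1792.9 in ACP with a median of 28.4, from 0 to 1799.3 in ACV with a median of 9.64, and from 0 to 925.7 in laryngeal neurons with a median of 58.2. Of 3 endothelial markers, Cldn5 alone passed the filter, with means of 6.24, 2.38 and 1.94 CPM, at least 2-fold higher in ACP than in both other types, and Flt1 was read in 0 of 53 ACP neurons, which allows a share of up to 5.66%. Within ACP the members' levels had Spearman's rho of -0.22 (Tenm4) to 0.23 (Flrt3) with the summed glial CPM, within ACV of -0.20 (Flrt1) to 0.26 (Tenm1), and within laryngeal neurons of -0.30 (Adgrl1) to 0.14 (Adgrl2). Each of the 4 genes higher in ACP than ACV was at least 2-fold higher also among the neurons with at most 900 reads of Apoe, with log2 ratios of 4.07 for Tenm1, 1.49 for Tenm4, 1.71 for Adgrl2 and 1.78 for Adgrl3. The part that RNA of glia, inhibitory neurons or vessels played in the members' values was not tested.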

How the data were processed

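Single retrogradely filled Amb neurons were profiled with Smart-seq2, which copies whole transcripts and amplifies them by PCR without molecular identifiers. According to the submitters' processing notes the reads were aligned to mm10 with STAR 2.6.1d. The counting program and gene annotation are not given in the sources used here. The authors deposited raw read counts per gene and neuron, without normalization. They state that each neuron had at least 500000 aligned reads and at most 1800 Apoe counts, and 39 cardiac neurons of the deposited table exceeded the latter. A deposited table named CPM was also made by the authors, and its values are a score without a fixed unit, since its columns sum to between 242376 and 3031764. It served only as an alternative. Neurons were grouped by the deposited target and cluster, and the deposited labels by themselves put all neurons in the same group.

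Counts were divided by the reads of the neuron outside Rn45s. Total counts ran from 542162 to 3292763 per neuron, and those outside Rn45s from 118492 to 2396541. Types were compared by the ratio of mean CPM over neurons, for genes read in 10% or more of the neurons of at least 1 type, with a limit of 2-fold. The study's rank sum test over neurons was not used, because neurons of a mouse are not replicates and the mouse is not in the labels. Shares of neurons carry exact Clopper-Pearson intervals and summed reads exact Poisson intervals, at 95%, for counting error only. The limits given for genes read in 0 neurons are instead 3 counts over the number of neurons, an approximate bound.

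The 10 genes, the partner and marker lists and the alternatives were chosen with earlier results of these data known. The genes named were all 10 members, the partner genes past 2-fold, the hosts of FLRT genes, and the 3 genes most alike each member that was past 2-fold in any comparison and read in at least 25% of neurons. Examples for contamination (Aqp4, C1qb, Opalin, Flt1, Cldn5, Sh2d1a) were named after their values were seen. An ACP or ACV neuron went against its label when the summed markers of the other cardiac type exceeded its own. A laryngeal neuron did so when the summed cardiac markers exceeded its laryngeal ones. Laryngeal markers were not checked in cardiac neurons. Leaving out neurons against their label, those above 1800 reads of Apoe, or each neuron in turn, were alternatives chosen after seeing the data.

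Gene positions and exon overlaps were read from GENCODE vM21 and promoter windows from RefSeq (GRCm38.p6), the same assembly as mm10. The ratio was tested on simulated counts. Alternatives were edgeR 4.0.16 TMM sizes, DESeq2 1.42.0 size factors, totals that keep Rn45s, the table named CPM, summed reads, a trimmed mean, 1 CPM added, other filters, 1.5-fold, at most 900 reads of Apoe, at least 1000000 reads, and thinning to 200000 reads. Python 3.11.15, numpy 2.4.6, pandas 2.3.3, scipy 1.17.1 and R 4.3.3 were used.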

Additional observations from a re-analysis of the deposited data

How the results depend on the processing

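The 10 genes had 30 ratios, and each kept within 1 SD of the neurons' log2 levels under 12 other scalings, averages and choices of neurons. That SD is between single neurons and is a wide limit for a ratio of means, so keeping within it does not show that a ratio is stable. Within it Tenm1 in ACP over ACV ran from 2.67 to 4.07, and Tenm4 in ACP over laryngeal from -1.06 to 0.16. Past 2-fold under all 12 were Tenm1, Tenm4, Adgrl2 and Adgrl3 in ACP over ACV, Tenm1 in ACP over laryngeal, and Tenm4 and Adgrl3 in ACV over laryngeal. Flrt3 in ACP over laryngeal was past it under 10, with log2 ratios of 0.82 from summed reads and 0.76 with at most 1800 reads of Apoe, Flrt1 under 7 and, in ACV over laryngeal, Tenm3 under 7. A limit of 1.5-fold gave 7 genes in ACP over ACV, 5 in ACP over laryngeal and 7 in ACV over laryngeal. A mean without the highest and lowest 10% of neurons gave 5 in ACP over laryngeal and 7 in ACV over laryngeal, against 3 each. In ACV over laryngeal, summed reads gave 5, neurons with at most 900 reads of Apoe 7, and leaving out neurons against their label 6. The causes were not tested.

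Scaling bears most on the laryngeal comparisons. With totals that keep Rn45s the median of all genes moved to 0.58 in ACP and 0.52 in ACV over laryngeal, and with the table named CPM to 0.99 and 0.90. The split of all genes at 2-fold then became 25.6% higher and 5.24% lower for ACP, and 24.7% and 7.18% for ACV, under totals that keep Rn45s, and 49.1% and 3.82%, and 44.9% and 5.02%, under the table named CPM. Under it 4 ratios of ACP over laryngeal turned positive, Tenm3 (0.81), Tenm4 (0.16), Adgrl1 (0.71) and Flrt2 (0.22), and 4 of ACV over laryngeal, Tenm1 (0.16), Adgrl1 (0.13), Flrt1 (0.79) and Flrt2 (0.07), so the order of these genes there depends on the scaling. Totals that keep Rn45s turned Tenm3 and Adgrl1 in ACP, and Flrt1 in ACV, over laryngeal neurons. The ratio of Flrt2 in ACP over ACV, near 0, changed sign under 8 of the 12. Of 30 shares of neurons with a read, 22 stayed within their interval after thinning and 19 with at least 5 reads required. With each neuron left out in turn, 3 to 5 members were past 2-fold in ACP over ACV, 2 to 4 in ACP over laryngeal and 2 to 4 in ACV over laryngeal.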
